A study of Rattus norvegicus with 4 samples.

Results

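The enzymes described here are those that oxidise and conjugate foreign compounds and aldehydes: the cytochromes P450 of the Cyp1 to Cyp4 families, the glutathione S-transferases (Gst), the UDP-glucuronosyltransferases (Ugt), the sulfotransferases (Sult), and the alcohol (Adh) and aldehyde (Aldh) dehydrogenases. Members were all probe sets of the array whose platform symbol named 1 gene and began with one of these family names, which gave 96 probe sets of 90 genes, among 15866 probe sets and 10411 named genes in the value table. A further 6 probe sets matched the same names but named several genes each, and were not counted as members. Xenobiotic metabolism runs in steps: P450 enzymes and dehydrogenases oxidise a compound, transferases then attach glutathione, glucuronic acid or sulfate, and transporters export the product. Aldehyde dehydrogenases also clear aldehydes from ethanol, lipid peroxides and amino acid breakdown. The liver is the best known site, but the gastric lining meets swallowed alcohol, drugs and dietary chemicals directly, and carries its own set.

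RNA came from the scraped acid-secreting (oxyntic) mucosa of the stomach of female Sprague-Dawley rats labelled as 8 weeks old, at 21 days. The control group was 1 Affymetrix RAE230A array of RNA pooled from 8 animals given the vehicle of the depot, and the treated group was 3 arrays, each of RNA pooled from 2 animals given octreotide LAR at 5 mg per animal. Octreotide is a somatostatin analogue, and LAR is its long-acting depot form. The animals were fasted overnight before sampling, in both groups. The treated arrays are called pools 1 to 3, and their numbers carry no order. The group of each array was read from its title; the source name of the control array also mentions octreotide LAR. The comparison asked which transcripts differed between treated and control mucosa, and its control value is a single array with no error of its own. Signals are linear intensities as deposited, and their median lay between 223.7 and 233.4 on the 4 arrays. The proton pump subunits Atp4a and Atp4b, which define the parietal cell, had 26693 and 39974 on the vehicle array, and none of the 5 parietal and 6 chief cell markers on the array was under the level set for testing.

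That level was the 40th percentile of the mean log2 signal, equal to a signal of about 144.7, and 46 of the 96 member probe sets (45 genes) passed it. Among all probe sets naming 1 gene, 63.2% passed, against 47.9% of the members. The families split widely. Of the Gst probe sets, 14 of 16 passed, and of the Aldh probe sets 13 of 14. Of the 43 P450 probe sets, 11 passed: Cyp1b1, Cyp2a3, Cyp2c23, Cyp2d4, Cyp2j4, Cyp2s1, Cyp2t1, Cyp3a9, Cyp4b1, Cyp4f6 and Cyp4v3. For Cyp2d4 and Cyp4v3, a second probe set stayed under the level. Of the Sult probe sets 5 of 12 passed, of the Adh probe sets 3 of 4, and of the Ugt probe sets none of 7, all of them of the Ugt2 subfamily. The signals of the 50 members under the level ran from 1.4 to 218.4, and 5 of them exceeded the level on at least 1 array. The members nearest to the level were Sult4a1, Cyp4b1 and Cyp1b1 inside it, at mean signals, taken on the same log scale, of 187.7, 196.7 and 223.7, and Ugt2b7, Cyp4a8 and Cyp2c11 outside it, at 124.7, 112.6 and 110.9. No detection calls were used here, so a member under the level cannot be called absent.

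**Figure D1:**
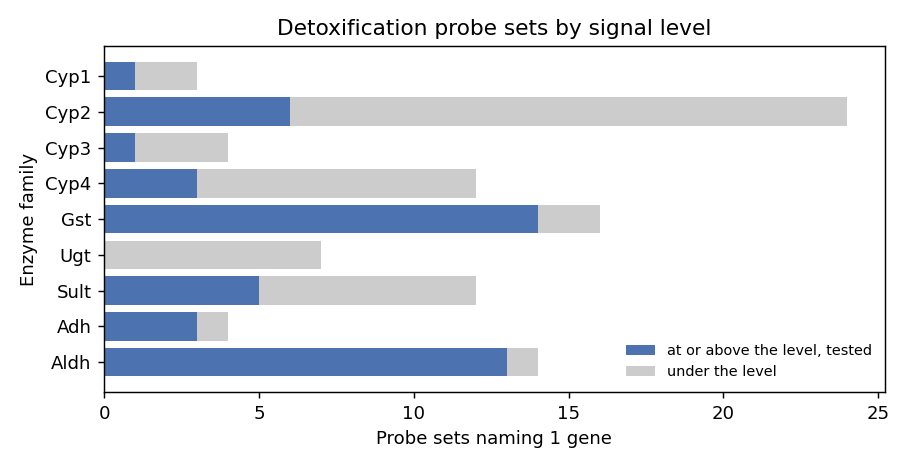
Number of probe sets naming 1 gene in each enzyme family (horizontal axis), divided into those at or above the signal level required for testing (blue) and those under it (grey). Nearly all Gst (14 of 16) and Aldh (13 of 14) probe sets passed, while 11 of 43 P450 probe sets and none of 7 Ugt probe sets did.

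Many member genes, tested or under the level, were neighbours in the genome, and several of the clusters were mostly under the level. In the GRCr8 rat assembly, taking members with starts within 1 Mb of the next as neighbours, the cluster that runs from Cyp2s1 to Cyp2t1 held 10 member genes, of which Cyp2s1, Cyp2a3 and Cyp2t1 passed and 7 did not, among them Cyp2b3, Cyp2b12, Cyp2b21 and Cyp2f4. All 5 Cyp2c genes beside Aldh18a1 were under the level, as were Cyp3a2, Cyp3a18 and Cyp3a23-3a1, and the adjacent Sult2a1, Sult2a2 and Sult2a6. The Ugt2 genes share a cluster with Sult1d1 and Sult1b1, and Sult1b1 was the single gene of its 8 that passed. By contrast, 5 of the 6 clustered mu-class genes (Gstm1, Gstm2, Gstm4, Gstm5 and Gstm7) passed, and Gstm3 did not. Many of the genes under the level are known from liver. Of the 6 hepatocyte markers on the array, Alb, Apob, Fgb and Cps1 were under the level, and Alb ran from 67.5 to 121 over the 4 arrays. Ttr and Serpina1 passed it, at 182.8 to 433.3 and 393.9 to 661.7.

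No member passed the test between octreotide LAR and vehicle. The limma test called 0 of the 46 tested members at an adjusted p under 0.05, where it called 0.105% of the 9520 probe sets tested. At an unadjusted p under 0.05, 7 members (15.2%) were reached, against 4.57% of all tested probe sets. Of these, 1 was higher, Aldh3a1, beside 2.86% of all probe sets, and 6 were lower, beside 1.71%: Cyp2a3, Cyp2d4, Gsta1, Gstk1 and both probe sets of Aldh6a1. In the mean, 20 members were higher and 26 lower, with a median log2 difference of -0.05, against a median of -0.003 over all probe sets tested. All treated arrays lay above the vehicle array for 9 members (19.6%; 25% of all tested) and below it for 15 (32.6%; 24% of all tested). The 95% interval of the difference stayed within 2-fold in both directions for 35 of the 46. A fold or log2 difference here is on the scale of log2(signal + 16), which understates differences of dim genes. In pooled tissue, fewer cells of a type and less RNA per cell cannot be told apart.

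Some markers of several cell types were also lower on the treated arrays. All 4 markers of the histamine-secreting ECL cell were below the vehicle array on every pool, with a median log2 difference of -1.07, and Hdc, which makes histamine, was called lower (-1.59, limma adjusted p = 0.0027). Their summed signal was 14788 on the vehicle array and 7046, 7189 and 7491 on pools 1, 2 and 3. Of the 6 chief cell markers 3 were below on every pool, where 24% of all probe sets tested were. Cym, the milk-clotting protease chymosin, differed by -1.60 (limma adjusted p = 0.070). The others, Chia, Bhlha15, Pga5, Cblif and Pgc, differed by -0.41, -0.15, -0.14, -0.11 and -0.03. Of the 9 pancreatic acinar markers on the array 6 were tested. Of these, 4 were below on every pool, where 24% of all probe sets tested were. Cela2a, Cel and Cpa1 differed by -1.42, -1.40 and -1.38, and the brighter Ctrb1, with 3107 on the vehicle array, by -0.35. None of the 4 passed. The summed acinar signal was 54564 on the vehicle array and 51491, 54067 and 42815 on the pools. Most of that sum was Clps, with 48789 on the vehicle array and 47579, 49879 and 39440 on the pools. Clps and Cela1 lay on both sides of the vehicle array, and Prss1, Pnlip and Amy2a3 were under the level. Of the 5 parietal cell markers 2, Kcnq1 and Kcne2, were below on every pool, and Atp4a, Atp4b and Aqp4 lay on both sides of the vehicle array. In the other direction, all 4 surface mucous cell markers were above on every pool without a call, and of 4 tested intestinal markers Fabp2 and Lgals4 were called higher. The other tested intestinal markers, Cdx2 and Muc2, differed by -0.14 and -0.08, and Cdx1, Apoa1 and Apoa4 were under the level. The part of these cell types in the differences of the 7 members at an unadjusted p under 0.05 was not tested.

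**Figure D2:**
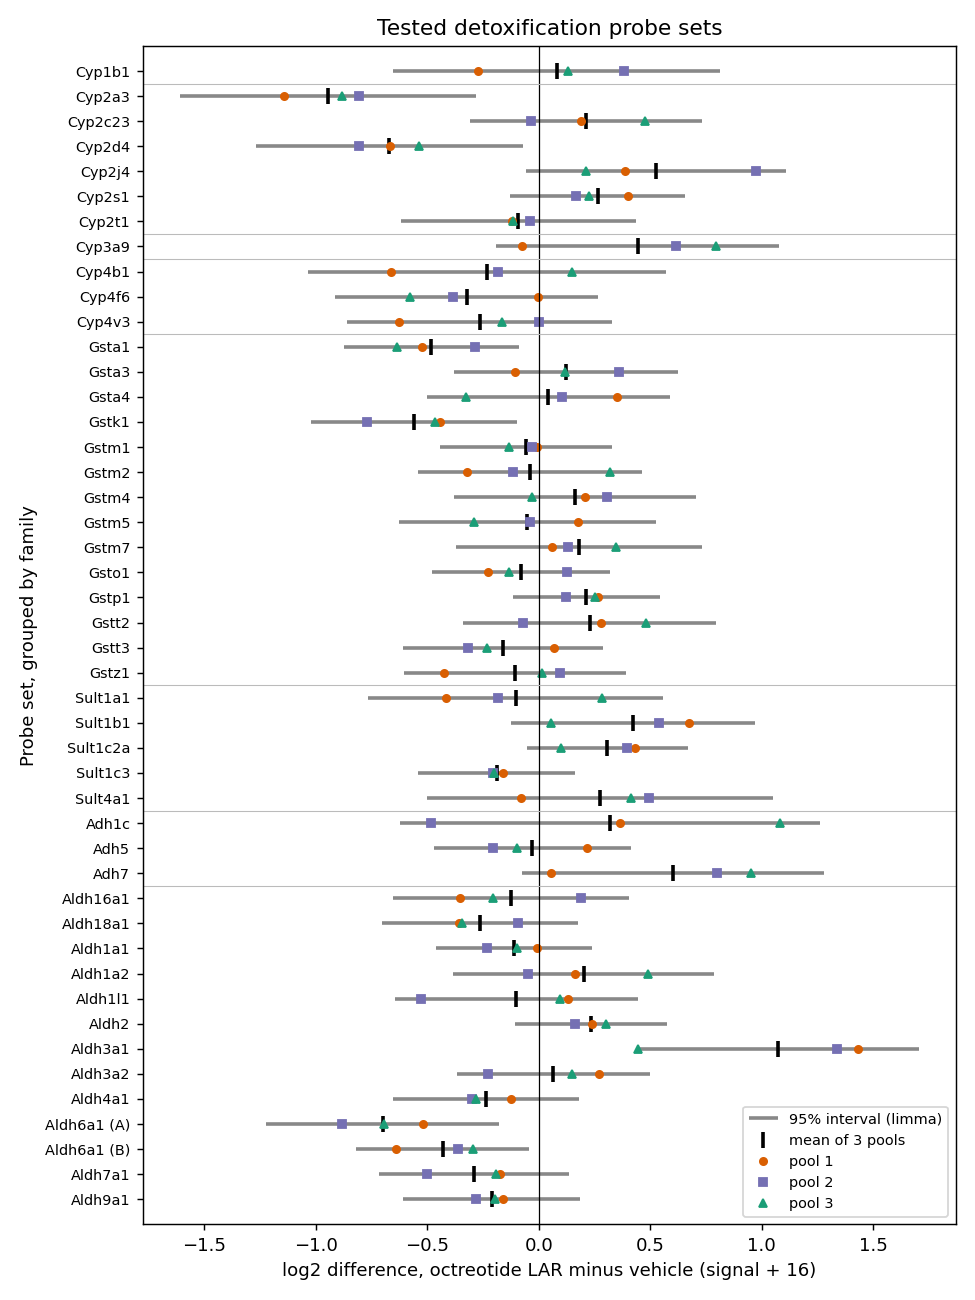
log2 difference between octreotide LAR and vehicle (horizontal axis, signal + 16) for the 46 tested probe sets, grouped by family from Cyp1 to Aldh; coloured points are the 3 treated pools, black ticks their mean and grey lines the 95% limma interval. Aldh3a1 had the highest mean of the members, 1.07, and Cyp2a3 the lowest, -0.94; no member had an adjusted p under 0.05.

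Aldh3a1, which oxidises aromatic and medium-chain aldehydes and is known from cornea and stomach, had signals of 1265 on the vehicle array and 3436, 3220 and 1731 on pools 1, 2 and 3. All treated pools lay above the vehicle array, and pool 3 was far closer to it than pools 1 and 2. The mean of the treated signals was 2796 ± 928 (SD, n = 3). The mean of their log2 values was 2.10-fold that of the vehicle array (log2 difference 1.07, 95% interval 0.44 to 1.70), which did not pass (limma adjusted p = 0.47). Without pool 1, 2 or 3 the limma adjusted p was 0.0054, 0.0031 and 1.78e-06, and over all alternatives it ran up to 0.9998. These smaller fits use the same lone control and estimate the spread from only 2 treated arrays, so their passes add no independent evidence. Squamous epithelium lines the neighbouring forestomach, and most of its marker genes were higher on the same arrays. Of 12 tested, 11 lay above the vehicle array on every pool, where 25% of all probe sets tested did. The test called 6 of the 12 higher, Lgals7 and Sprr3 among them, beside 0.105% of all probe sets called in either direction. Lgals7, Krt14, Krt5, Krt15 and Sprr3 were under the level on the vehicle array, at 22.4, 93.4, 100.2, 128.3 and 139.4. These genes passed the filter only through the treated arrays, so their higher values there are partly built in and are no separate support. Sbsn, the brightest of the list on the vehicle array at 1444, lay below it on every pool, at 1367, 1279 and 1122. The summed signal of the 13 squamous genes on the array was 3471 on the vehicle array and 11316, 8366 and 7301 on pools 1, 2 and 3. Krt4, the gene of that list under the level, had 134.9 on the vehicle array and 363, 23 and 14.4 on the pools. The part of squamous tissue in the Aldh3a1 difference was not tested.

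**Figure D3:**
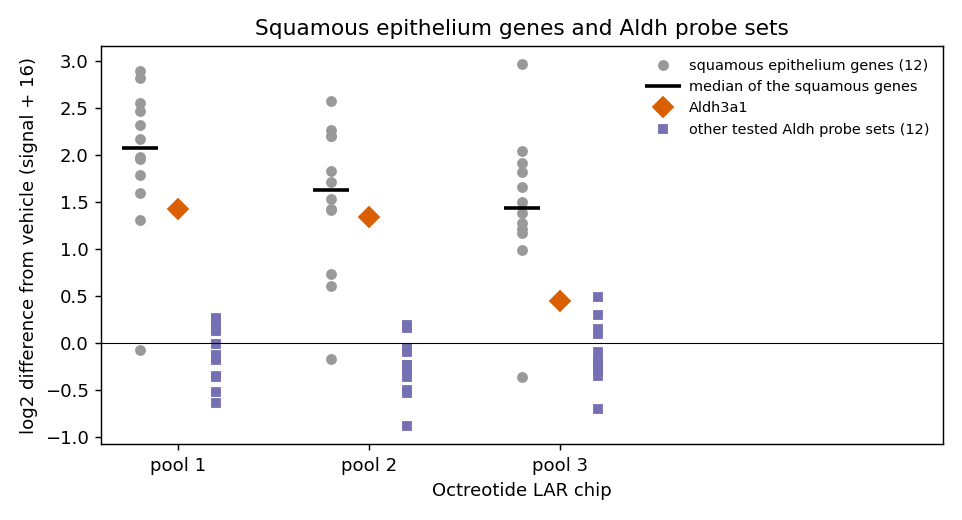
log2 difference from the vehicle array (vertical axis, signal + 16) on each treated pool for 12 squamous epithelium genes (grey, with their median as a black bar), Aldh3a1 (orange) and the other 12 tested Aldh probe sets (purple). Aldh3a1 was at 1.43, 1.34 and 0.45 on pools 1, 2 and 3, where the squamous median was 2.07, 1.62 and 1.44; the other Aldh probe sets ran from -0.88 to 0.49.

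None of the other aldehyde dehydrogenases passed the test. Of the 12 other tested Aldh probe sets, 9 had a mean below the vehicle array. On all pools 7 lay below it, where 24% of all probe sets tested did, and 2 of these were of the same gene, Aldh6a1. Aldh2 lay above it on all pools, where 25% of all probe sets tested did, and 4 lay on both sides. Aldh6a1, the mitochondrial methylmalonate semialdehyde dehydrogenase of valine breakdown, was measured by 2 probe sets. Probe set A had 700.8 on the vehicle array and 484, 373.1 and 426.7 on pools 1, 2 and 3. Probe set B had 3775 on the vehicle array and 2420, 2936 and 3074 on the pools. Both were below the vehicle array on every pool, but the pools were ordered differently: pool 2 was the lowest for A and pool 1 for B. Their log2 differences were -0.70 (95% interval -1.22 to -0.18) and -0.43 (-0.82 to -0.04), with limma adjusted p of 0.95 and 0.9998. Since both probe sets read the same RNA, they are not separate samples.

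Aldh1a1, a cytosolic enzyme that makes retinoic acid, had 5156 on the vehicle array and 5137, 4389 and 4812 on pools 1, 2 and 3. Pool 1 was level with the vehicle array, and the difference was -0.11 with an interval from -0.46 to 0.24. Aldh2, the mitochondrial enzyme that clears acetaldehyde after ethanol, had 3929 on the vehicle array and 4645, 4398 and 4847 on the pools. All pools were higher, by 0.23 on average with an interval from -0.11 to 0.58. The remaining tested members of the family were Aldh16a1, Aldh18a1, Aldh1a2, Aldh1l1, Aldh3a2, Aldh4a1, Aldh7a1 and Aldh9a1. Their differences ran from -0.29 to 0.20. Aldh5a1, the succinate semialdehyde dehydrogenase of GABA breakdown, was under the level at 17.2 to 28.9.

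The 3 tested alcohol dehydrogenases, Adh7, Adh1c and Adh5, had SDs of 0.48, 0.78 and 0.22 on the log2 scale between treated pools. The median SD was 0.23 for the 46 members and 0.18 for all probe sets tested. Adh7, the class IV enzyme known from the upper digestive tract, which acts on ethanol and retinol, had 337.9 on the vehicle array and 352, 600.5 and 669 on pools 1, 2 and 3. Pool 1 was level with the vehicle array and the other two were well above it, the reverse of the order seen for Aldh3a1. The difference of 0.60 had an interval from -0.07 to 1.28 and did not pass (limma adjusted p = 0.9998). Adh1c, a class I ethanol dehydrogenase, had 267.3 on the vehicle array and 349, 186.6 and 584 on the pools. It had the widest spread of all tested members, an SD of 0.78 on the same scale. Adh5, the class III enzyme that removes formaldehyde with glutathione, had 1436 on the vehicle array and 1673, 1244 and 1340 on the pools, on both sides of it. Its difference of -0.03 had an interval from -0.47 to 0.41. Adh4 was under the level, with 20.9 on the vehicle array and 116.1, 100.6 and 126 on the pools.

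Glutathione S-transferases were the family with the most tested probe sets, and their median log2 difference was -0.04. The sign of that median depends on single pools: it was 0.026 without pool 1 and 0.025 without pool 3. Gsta1, an alpha-class enzyme that also reduces lipid hydroperoxides, had 3553 on the vehicle array and 2470, 2910 and 2284 on pools 1, 2 and 3. Every pool was lower, and the difference was -0.48 with an interval from -0.87 to -0.09 (limma adjusted p = 0.99). Gstk1, the kappa-class enzyme of mitochondria and peroxisomes, had 1155 on the vehicle array and 847.2, 670.6 and 831.6 on the pools. It too was lower on every pool, and the difference of -0.56 had an interval from -1.02 to -0.10 (limma adjusted p = 0.99). Over all settings the lowest limma adjusted p was 0.32 for Gsta1 and 0.30 for Gstk1. Gstp1, the pi-class enzyme that is abundant in many epithelia outside the liver, had 7357 on the vehicle array and 8847, 8021 and 8762 on the pools. All pools were higher, by 0.21 with an interval from -0.12 to 0.54.

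Gsto1, an omega-class enzyme that reduces arsenic compounds, had 2508 on the vehicle array and 2141, 2738 and 2285 on the pools, on both sides of it. The other 10 tested transferases, of the alpha, mu, theta and zeta classes, had differences from -0.16 to 0.23, and none of their intervals reached 2-fold. Gstm1, for example, had 1645 on the vehicle array and 1637, 1609 and 1497 on the pools, a difference of -0.06 with an interval from -0.44 to 0.33. Gstm3 and Gstt1 were under the level. Alpha and mu genes are close paralogues, and a probe set may take up RNA of a neighbour, so a value here may mix genes. A probe set that named 2 alpha-class genes, not a member, had 227 on the vehicle array and 102.6, 162.8 and 147.8 on the pools.

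Many transferase genes are induced through the antioxidant response element, whose core TGACNNNGC is bound by Nfe2l2, and P450 genes of the Cyp1 family through the xenobiotic response element, core GCGTG, bound by Ahr. Promoters of 75 of the 90 member genes were matched in RefSeq's GRCr8 sequences. The other 15, among them Aldh3a1, Aldh2 and Cyp1a1, were not searched. In the 250 bases before a start, on either strand, the first core was found in 9 of the 75 genes (12%), against 11% of all 27457 genes with a promoter sequence. All 9 were tested genes, of 39 matched, and none was among the 36 under the level. The second core was found in 17 (22.7%), against 28.4% of all genes, 14 of them tested and 3 under the level. The shares of either core among all tested genes and among all genes under the level were not counted. These splits by level can therefore not be read as a trait of the members. Of the 9 carriers of the first core, Cyp2s1, Gstp1 and Gstm7 were above the vehicle array on all pools. The others, Aldh16a1, Aldh1a2, Cyp4b1, Gsta3, Gstm5 and Gstz1, lay on both sides of it. Of the 14 tested carriers of the second core, 2 were above on all pools, 4 below and 8 on both sides. Over all probe sets tested, 25% were above on all pools and 24% below. Of the 3 first-core carriers above on all pools, Cyp2s1 and Gstp1 had the larger mean differences and are shown. Capitals mark the core. The Cyp2s1 window is chr1:90453074-90453323 on the minus strand, with the core 196 to 188 bases before the start, and the Gstp1 window is chr1:210769706-210769955 on the minus strand, with the core 61 to 53 bases before the start. The Gstp1 core overlaps the AP-1 motif TGACTCA. These matches are letters in a window, and the arrays did not measure binding there.
Cyp2s1: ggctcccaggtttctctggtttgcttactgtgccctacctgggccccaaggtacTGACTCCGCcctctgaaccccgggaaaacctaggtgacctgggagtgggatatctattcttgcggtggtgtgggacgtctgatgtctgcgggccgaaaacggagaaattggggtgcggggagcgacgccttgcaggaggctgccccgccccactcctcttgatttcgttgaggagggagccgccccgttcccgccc
Gstp1: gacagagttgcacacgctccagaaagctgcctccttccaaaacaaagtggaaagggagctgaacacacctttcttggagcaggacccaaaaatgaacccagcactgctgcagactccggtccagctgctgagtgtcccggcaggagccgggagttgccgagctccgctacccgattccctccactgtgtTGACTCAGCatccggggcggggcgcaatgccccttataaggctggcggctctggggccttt

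Among the P450 enzymes, the Cyp2 family held the lowest differences. Cyp2a3, an enzyme known from the nasal lining and lung of the rat, had 399.6 on the vehicle array and 172.2, 221.7 and 209.5 on pools 1, 2 and 3. Among the 46 tested members it was the 1 at least 1.5-fold below the vehicle array on every pool, beside 0.42% of all tested probe sets, and none of the 46 was 1.5-fold above on every pool, beside 1.13%. The mean of the log2 values was 1.92-fold lower, a difference of -0.94 with an interval from -1.61 to -0.28 (limma adjusted p = 0.81, and 0.27 to 0.98 over all settings). Cyp2a1, Cyp2a2 and Cyp2a3 are paralogues. Cyp2a1 and Cyp2a2 were under the level, and a probe set that named 2 genes of this subfamily had 250.4 on the vehicle array and 197.1, 233.4 and 204.5 on the pools.

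Cyp2d4, a member of the large drug-metabolising Cyp2d subfamily, had 428.5 on the vehicle array and 263.6, 238.1 and 290.8 on the pools. All pools were lower, with a log2 difference of -0.67 and an interval from -1.27 to -0.07 (limma adjusted p = 0.9998). A second Cyp2d4 probe set was under the level, with 98.7 on the vehicle array and 18.1, 90.6 and 73.8 on the pools. It too was below the vehicle array on every pool, but the pools were ordered differently. Its values were close to those of the probe set of Cyp2d2, at 90.4 and 17.6, 89.2 and 71.1. Both are dim, and pool 1, the lowest of the pools there, was not the lowest for the tested Cyp2d4 probe set.

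Cyp2j4, an epoxygenase of arachidonic acid known from the intestine, had 570 on the vehicle array and 750.2, 1136 and 663.4 on the pools. All pools were higher, with pool 2 standing above the others, and the difference of 0.53 had an interval from -0.06 to 1.11. Cyp2s1, a P450 of epithelia outside the liver that is induced by dioxin, had 1554 on the vehicle array and 2055, 1746 and 1821 on the pools, all higher, by 0.26 with an interval from -0.13 to 0.65. Cyp2c23, the arachidonic acid epoxygenase of rat kidney, had 569.9 on the vehicle array and 652.6, 555.5 and 800 on the pools. Its pools lay on both sides, and the difference of 0.21 had an interval from -0.31 to 0.73. Cyp2t1 was at 416.3 and 381.6, 404.4 and 383.

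Of the Cyp3 family, Cyp3a9, a steroid hydroxylase, was tested. It had 504.3 on the vehicle array and 477.8, 780.5 and 887.9 on pools 1, 2 and 3. As for Adh7, pool 1 was close to the vehicle array and pools 2 and 3 were above it. The difference of 0.45 had an interval from -0.19 to 1.08. Cyp1b1, an oxidase of steroids and polycyclic hydrocarbons, had 213.9 on the vehicle array and 174.6, 283.3 and 235.8 on the pools. Cyp1a1 and Cyp1a2, the best known targets of Ahr, were under the level, Cyp1a1 at 5.6 to 30.6 and Cyp1a2 at 21.1 to 123.6. Ahr itself and its partner Arnt were under the level too.

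The tested Cyp4 enzymes, which hydroxylate fatty acids and eicosanoids, all had means below the vehicle array. Cyp4f6 had 485.8 on the vehicle array and 484.3, 368.2 and 320.7 on the pools. Cyp4v3 had 513.5 and 326.5, 514.6 and 455.9, and Cyp4b1 had 224 and 135.5, 195.4 and 250.3. The pool nearest to the vehicle array was a different one in each case, and the differences of -0.32, -0.26 and -0.23 had intervals that reached from -1.04 to 0.57. Cyp4a1, Cyp4a3 and Cyp4a8 were under the level.

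Sulfotransferases attach sulfate from the donor PAPS to phenols, steroids and amines. Sult1c2a had 9120 on the vehicle array and 12294, 12004 and 9766 on pools 1, 2 and 3. All pools were higher, pool 3 least, and the difference of 0.31 had an interval from -0.05 to 0.67 (limma adjusted p = 0.9998). Sult1b1, which sulfates thyroid hormones and phenols, had 546.4 on the vehicle array and 880.8, 802.6 and 568.8 on the pools. It showed the same order of pools, with a difference of 0.42 and an interval from -0.12 to 0.97. Sult1c3 had 3002 on the vehicle array and 2683, 2604 and 2613 on the pools, the tightest treated values of all tested members, with an SD of 0.02 on the log2 scale. It was below the vehicle array on every pool by -0.19 on average, with an interval from -0.54 to 0.17. Sult1a1, the main phenol sulfotransferase, lay on both sides of the vehicle array at 342.4 and 253.1, 299.6 and 421. Papss1, which makes PAPS, had 3660 on the vehicle array and 4508, 4532 and 4270 on the pools, and did not pass either.

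**Figure D4:**
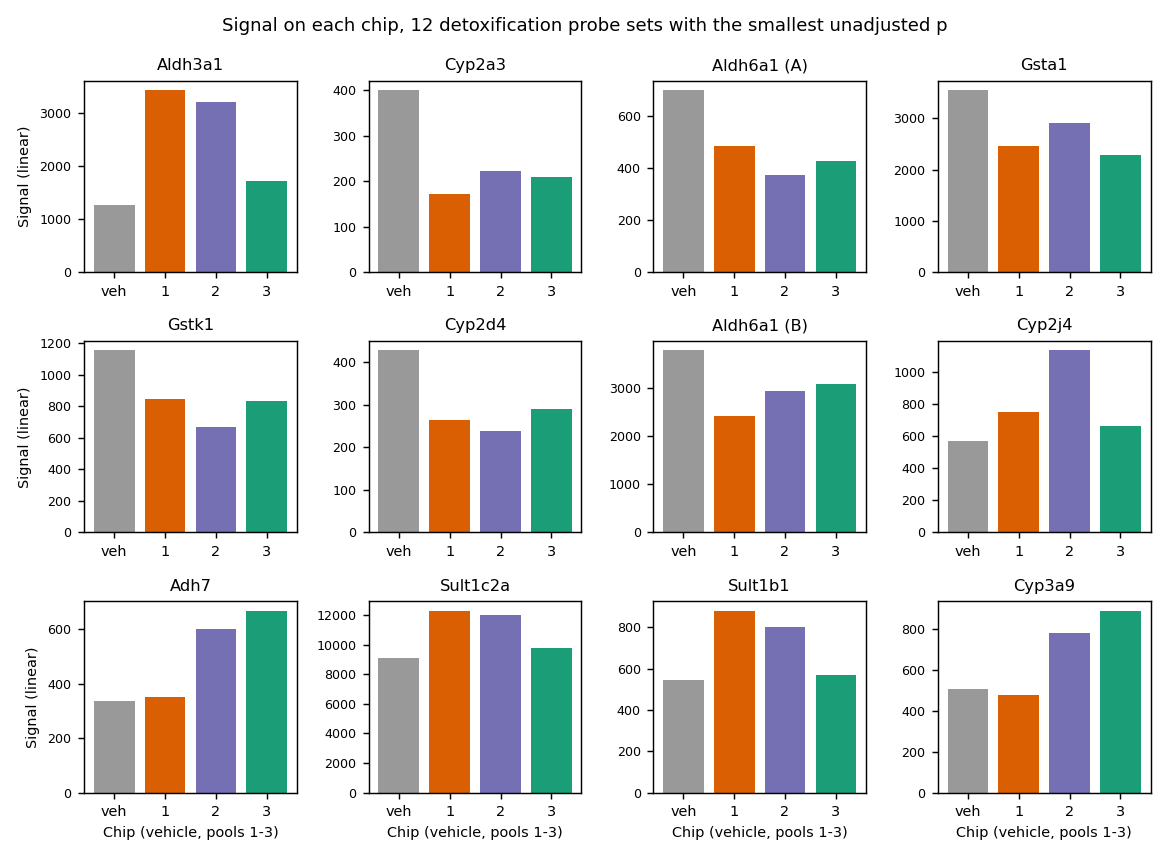
Linear signal (vertical axes, each from 0, with separate scales) on the vehicle array (grey) and treated pools 1 to 3 (coloured) for the 12 tested members with the smallest unadjusted p; each bar is 1 array, so there are no error bars. Aldh3a1 was at 1265 on the vehicle array and between 1731 and 3436 on the pools, while Cyp2a3, Cyp2d4, Gsta1, Gstk1 and both Aldh6a1 probe sets (A and B) were lower on all 3 pools.

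Ugt enzymes attach glucuronic acid, and their Ugt1 genes share all but the first exon. The 7 Ugt2 members were under the level, at 1.4 to 204.6. The highest of these values was that of Ugt2b7 on pool 1, with 90.7 on the vehicle array. The Ugt1 genes were seen through 2 probe sets that each named 8 of them, and so were not members; both passed the level. The first had 5431 on the vehicle array and 4260, 5759 and 5972 on the pools, on both sides of it, a difference of -0.04 with an interval from -0.46 to 0.37. The second had 2183 on the vehicle array and 2543, 2471 and 2552 on the pools, all higher, by 0.21 with an interval from -0.15 to 0.57. Which of the Ugt1 genes these signals came from cannot be told.

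Of the 50 members under the level, 11 (22%) were above the vehicle array on all pools and 11 (22%) below it, where 23.5% and 23.9% of all 6346 probe sets under the level were. They included Sult2a1, a sulfotransferase of bile acids and steroids, with 49 on the vehicle array and 3.1, 9.7 and 2.8 on the pools, and Sult2a6 in the other direction, with 4.3 and 37.2, 27.4 and 34.4. At least 1.5-fold above the vehicle array on every pool, on the same log2(signal + 16) scale, were 5 of the 50 (10%; 6.82% of all probe sets under the level): Adh4, Cyp2c12, Cyp4f4, Sult1d1 and Sult2a6. At least 1.5-fold below was 1 (2%; 5.06% of all), Sult2a1. These were not tested, and at such signals no fold of a single gene is given.

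Other genes of detoxification, from a list of 84, showed no calls. Of these, 72 were on the array and 55 were tested; 29 were higher and 26 lower in the mean, 0 passed the limma test in either direction, beside 0.105% of all probe sets tested, and 1 (1.82%) had an unadjusted p under 0.05, beside 4.57%. That share is below the share over all probe sets. The gene was Mgst2, a membrane-bound glutathione transferase, with 2243 on the vehicle array and 3679, 3259 and 3453 on pools 1, 2 and 3. All pools lay together above the vehicle array, and the mean difference was 0.62, with interval bounds of 0.26 and 0.98 (limma adjusted p = 0.45). Next came Nqo1, the quinone reductase that is induced through both response elements, with 2895 on the vehicle array and 3940, 4057 and 3309 on the pools. Its order of pools resembled that of Aldh3a1 in that pool 3 was the lowest, and the difference of 0.37 had an interval from -0.002 to 0.75. Cbr3, a carbonyl reductase, had 617.2 and 820.5, 739.4 and 866.4. Hmox1, the inducible heme oxygenase, had 128.3 on the vehicle array, under the level, and 153.3, 237.8 and 267.1 on the pools. Hmox1 passed the filter only through the treated arrays, which favours a higher value there. Txn1, thioredoxin, had 15160 on the vehicle array and 18517, 17283 and 17127 on the pools. Of 11 regulators on the array, 4 were tested and none passed. All 4 had higher means, as had 4699 of all 9520 probe sets tested. Nfe2l2 lay above the vehicle array on every pool, by 0.21 in the mean. Nr1i2, Keap1 and Cebpb, with differences of 0.03, 0.11 and 0.10, lay on both sides of it. The other 7, Ahr, Arnt, Nr1i3, Rxra, Hnf4a, Cebpa and Ppara, were under the level.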

How the data were processed

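The authors deposited 1 linear signal intensity per probe set and array; their algorithm and any scaling were not stated. The mean without the 2% at each end was 496.8 to 497.2 on all arrays, so a change in total RNA cannot be seen. Per the labels' protocols, RNA was extracted with a column kit and labelled as biotin cRNA. Signals were transformed as log2(signal + 16) without further scaling. Of 15866 probe sets, 9520 at or above the 40th percentile of the mean over 4 arrays entered the limma fit (version 3.58.1, R 4.3.3, lmFit and eBayes with a trend), 3 treated arrays against 1 vehicle array, two-sided, with Benjamini-Hochberg adjustment over all of them and a threshold of 0.05. The spread came from the treated arrays (2 residual and 11.5 prior degrees of freedom), and the vehicle array was assumed to vary alike. The code was tested on simulated arrays. Intervals are 95%. Treated values are mean ± SD; the number of arrays limits the precision.

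Symbols came from the platform annotation, updated by Entrez ID in GRCr8, where 95 of 96 members matched. The files name no genome build. Members and lists were chosen with earlier results of these data known. Values on every array are given for the 12 tested members with the smallest unadjusted p, the 3 with the highest mean signal in each family, and any at least 1.3-fold to 1 side of the vehicle array on all pools, and for the 6 listed pathway genes with the smallest unadjusted p. Cyp2t1, Sult1a1, Gstm1, the members under the level, the probe sets of several genes and the 2 promoters shown were picked after their values were seen.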

Additional observations from a re-analysis of the deposited data

How the results depend on the processing

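The lone vehicle array cannot be left out, so a peculiarity of that pool cannot be told apart from treatment. No paired analysis was possible because the groups share 1 replicate number only. The count of all probe sets called, 10, became 0 of 15866 with dim probe sets kept (776 with an unadjusted p under 0.05), 5 with quantile normalization, 5 with centring on the 75th percentile, 1 without a trend of the spread, and 31 to 55 without 1 treated pool. The count of detoxification probe sets called, 0, became 1 (Aldh3a1) without pool 1, 2 or 3 and stayed 0 under the other alternatives. The members' median log2 difference of -0.05 became -0.085 without the filter and ran from -0.055 to -0.0125 without 1 pool. Of 499 single-member values, 484 kept direction and side of the threshold. Without 1 pool the sign turned for 10 members, whose log2 differences ran from -0.070 to 0.26 for Cyp1b1, -0.11 to 0.23 for Gsta4, -0.22 to 0.10 for Gstm2, -0.17 to 0.069 for Gstm5, -0.20 to 0.055 for Gstz1, -0.30 to 0.051 for Sult1a1, -0.059 to 0.72 for Adh1c, -0.15 to 0.06 for Adh5, -0.22 to 0.11 for Aldh1l1 and -0.038 to 0.21 for Aldh3a2. The causes were not tested.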
